A study of Homo sapiens with 8 samples.

Results

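The genes described here encode the ubiquitin-conjugating enzymes whose symbols begin with UBE2 and the deubiquitinases whose symbols begin with USP and a number. They were taken by name from the table of read counts per gene, leaving out names with a hyphen, which gave 33 UBE2 rows and 41 USP rows, or 74 of the 10105 genes in the table. The name rule also took UBE2Q2L, which GENCODE lists as a transcribed pseudogene, and USP6NL, a GTPase-activating protein that is not a deubiquitinase. Both were kept in the counts of calls and medians, except that UBE2Q2L, which has no coding length, is missing wherever coding sequence or coding length was used. All 74 genes had reads in each of the 8 libraries, with a lowest count of 10, and no filter on low values was applied.

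Ubiquitin is attached to proteins in a relay in which an E1 enzyme activates it, an E2 enzyme carries it as a thioester on its active-site cysteine, and an E3 ligase directs it to a substrate. Most UBE2 genes encode E2 enzymes, which are small proteins built around a single conserved fold, and some of them carry ubiquitin-like proteins such as NEDD8 or ISG15 instead. The USP enzymes are cysteine proteases that remove ubiquitin or trim its chains, and most are large proteins with further domains besides the protease. XRN1 is the cytoplasmic exonuclease that degrades mRNAs from their 5′ end after decapping.

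Total mRNA (RNA-Seq) and ribosome-protected fragments (RPF, Ribo-Seq) were measured in HEK293T, an established human embryonic kidney cell line, to ask how mRNA levels and translation differ without XRN1. WT cells and XRN1-null cells, in which Cas9 had been directed to an exon of XRN1, were harvested 24 h after plating. Each genotype had 2 biological replicates per assay. All XRN1-null libraries came from the same edited cell line, so the effect of the genotype and any other property of that line cannot be told apart. The RNA-Seq libraries held 33757487 to 38145433 counts and the Ribo-Seq libraries 1921641 to 4399542. XRN1 itself had 1187 and 1084 RNA-Seq counts in WT against 10655 and 9834 in XRN1-null cells. In Ribo-Seq it had 66 and 217 in WT against 91 and 59 in XRN1-null cells, which is lower in counts per 1 M (CPM) in the XRN1-null libraries. Of 8 genes listed as markers of HEK293T, 7 were in the table, and of 7 markers of other cell types, only COL1A1 was. COL1A1 mRNA averaged 14.6 CPM in WT against 37.1 CPM in XRN1-null cells, and its part in the results below was not tested.

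The UBE2D enzymes are 4 close paralogs that work with many E3 ligases, and their active sites show how closely the coding sequences of short E2 proteins can match. The 30 bases of coding strand around the codon of the active-site cysteine, residue 85 in each of the 4 proteins, are printed from the GRCh37 genome, with that codon in capitals. The positions are chr10:60124573-60124602 (plus strand) for UBE2D1, chr5:138994488-138994517 (plus strand) for UBE2D2, chr4:103722645-103722674 (minus strand) for UBE2D3 and chr7:43988273-43988302 (plus strand) for UBE2D4, all within a coding exon.
UBE2D1: aatggaagtattTGTctcgatattctgagg
UBE2D2: aatggcagcattTGTcttgatattctacga
UBE2D3: aatggcagcattTGTctcgatattctaaga
UBE2D4: aatggcagcatcTGCcttgatatcctgcgg
Within these 30 bases UBE2D2 and UBE2D3 differed at 2 positions, UBE2D1 and UBE2D3 at 4, UBE2D2 and UBE2D4 at 5, and UBE2D4 and UBE2D3 at 7. Over the whole coding sequence, UBE2D2 and UBE2D3 had 86.6% identical bases, 97.3% identical residues and a longest shared run of 80 nt. The UBE2D3 bases above also matched another place in the genome exactly over each 29-nt window, while those of UBE2D1, UBE2D2 and UBE2D4 did not.

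Footprints were 29 or 30 nt long, so a footprint from a window shared with another place cannot be assigned to 1 gene by its sequence. Each 29-nt window of the 73 coding sequences was therefore searched in GRCh37 outside the gene itself, on both strands. In the UBE2 genes, 13.6% of the windows matched elsewhere, compared with 4.13% in the USP genes. The share reached 80.9% in UBE2V1, 79.0% in UBE2S, 75.8% in UBE2L3, 66.3% in UBE2D3, 64.2% in UBE2E3, 56.8% in UBE2N, 47.6% in UBE2M and 29.4% in UBE2F, and lay between 10% and 20% in UBE2C, UBE2H, UBE2Q2 and UBE2V2. Among the USP genes it was 57.5% in USP12, 47.1% in USP18, 40.2% in USP10, 35.8% in USP32 and 19.2% in USP8. In 16 of 32 UBE2 and 24 of 41 USP coding sequences no window matched elsewhere. Only genomic sequence was searched, so windows across an exon junction that a spliced paralog shares could be missed. UBE2D2, for example, shared 52 windows with the UBE2D3 coding sequence, but 36 of its windows matched in the genome. The shares are therefore lower limits. How reads from such windows were assigned is not given in the sources used here, and values of the genes named in this paragraph are uncertain for that reason.

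**Figure D1:**
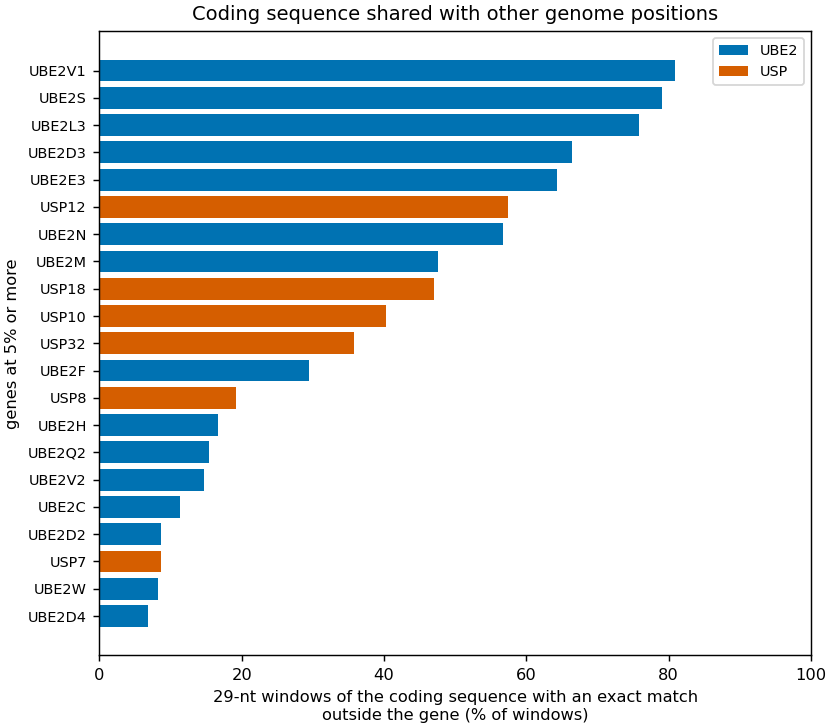
Share of 29-nt coding windows with an exact genomic match outside the gene (horizontal axis, % of windows) for the members at 5% or more. UBE2 genes are in blue and USP genes in orange. UBE2V1 (80.9%) and UBE2S (79.0%) are highest, and USP12 (57.5%) is the highest USP gene.

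The families differ in how their mRNAs are built. The width that the table gives per gene, whose definition is not given in the sources used here, had a median of 2866 nt in UBE2 rows and 5343 nt in USP rows, against 3225 nt over all genes. Coding length, taken from the GENCODE reference transcript, separated the families more clearly, with medians of 543 nt and 2760 nt and 1350 nt over all genes. By contrast, 3′ untranslated regions had similar medians of 1894.5 nt and 1869 nt. The width was a median of 1.04 times the length of the reference transcript in 73 members, with a range of 0.302 to 2.04, so shares of the width are approximate. Coding sequence made up a median of 22.4% of the width in UBE2 genes and 58.4% in USP genes. UBE2W, which ubiquitinates protein N termini, had a width of 9088 nt and a coding length of 453 nt, whereas USP34 had 11310 nt and 10638 nt. The shortest rows were UBE2Q2L (498 nt) and UBE2T (912 nt), and the shortest USP rows were USP18 (2035 nt) and USP21 (2354 nt). The longest were UBE2W and UBE2O (5355 nt), and USP9X (12401 nt) and USP34.

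In WT cells the E2 mRNAs were the more abundant family. Per kb of width, UBE2 genes had a median of 38.3 CPM of mRNA, USP genes 9.46 CPM and all genes 15.0 CPM. The highest was UBE2S, the chain-elongating E2 of the anaphase-promoting complex, at 331 CPM per kb (79.0% of its windows match elsewhere), and UBE2C, its chain-initiating partner, reached 142 CPM per kb. USP22, the deubiquitinase of the SAGA complex, was the highest USP gene at 92.9 CPM per kb, followed by USP1, which deubiquitinates FANCD2 and PCNA, at 70.5 CPM per kb. The lowest were the UBE2Q2L pseudogene at 2.06 and USP27X at 3.15 CPM per kb.

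Footprints per kb of coding length divided by mRNA per kb of width gave a density ratio with a median of 3.02 in UBE2 genes, 1.34 in USP genes and 1.78 over all genes. This ratio depends on how much of the width is coding, since footprints come from the coding sequence and mRNA reads from the whole mRNA. Without length scaling, the ratio of footprint to mRNA CPM in WT cells, here called translational efficiency (TE), had medians of 0.576, 0.726 and 0.82. On this scale UBE2Q2 (0.196) and USP12 (0.142) were the lowest of their families, and USP14 (1.37), which acts at the proteasome, was the highest USP gene. Among the UBE2 rows the highest TE was that of UBE2Q2L (5.51), on 50 and 21 RNA-Seq counts in the WT libraries, and the next was UBE2T (1.86), the E2 of the Fanconi anaemia pathway.

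**Figure D2:**
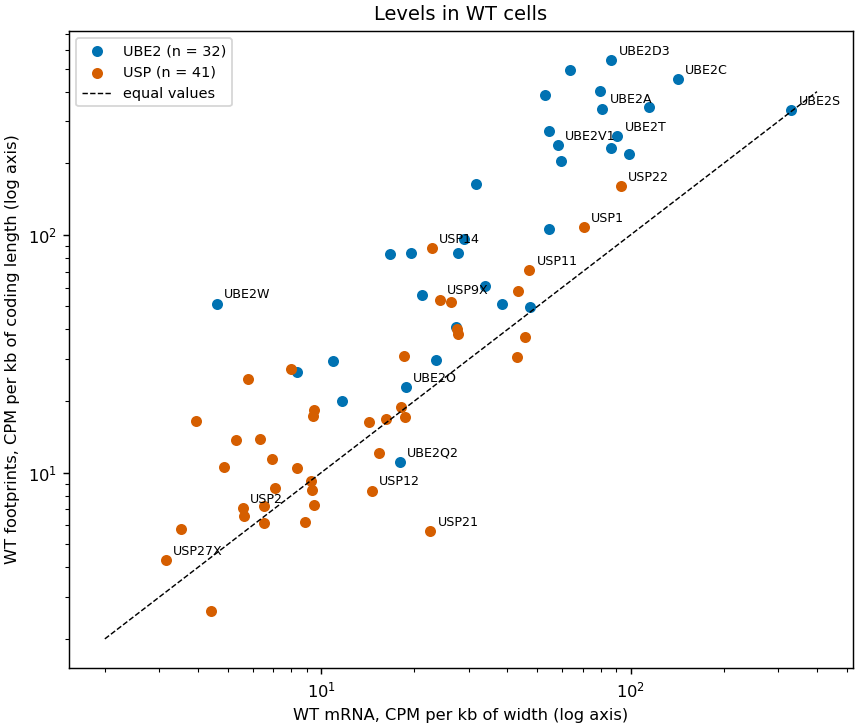
WT mRNA (horizontal, CPM per kb of width, log axis) against WT footprints (vertical, CPM per kb of coding length, log axis) for 32 UBE2 genes (blue) and 41 USP genes (orange), each point the mean of 2 libraries, with a dashed line at equal values. UBE2 genes lie to the upper right of most USP genes, with medians of 38.3 against 9.46 CPM per kb of mRNA.

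In XRN1-null cells, most mRNA changes called among the conjugating enzymes were falls and most of those among the deubiquitinases were rises. Of the 33 UBE2 rows, 14 fell, 1 rose and 18 were not called, with a median log2 fold change of -0.30. Of the 41 USP rows, 24 rose, 1 fell and 16 were not called, with a median of 0.53. Calls were made with edgeR's quasi-likelihood test at a false discovery rate (FDR, p after Benjamini-Hochberg adjustment over all genes) below 0.005, at which 22.9% of all genes were higher and 23.2% lower, around a median of -0.015. At an FDR below 0.05, 3 UBE2 genes were higher and 21 lower, and 24 USP genes were higher and 4 lower, against 32.8% and 34.2% of all genes. Both XRN1-null libraries were below both WT libraries in 25 UBE2 genes (75.8%) and above both in 5 (15.2%), and above both in 25 USP genes (61.0%) and below both in 7 (17.1%). Over all genes they were above both in 41.0% and below both in 43.7%. The summed mRNA of the UBE2 rows was 4585 and 4455 CPM in WT against 3818 and 3833 CPM in XRN1-null cells, and that of the USP rows was 3667 and 3909 CPM in WT against 4996 and 4921 CPM in XRN1-null cells. In both families the sums did not overlap between genotypes. In bulk RNA, fewer cells with a transcript and less of it per cell cannot be told apart.

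The USP count depended less on single libraries than the UBE2 count. With XRN1-null RNA-Seq replicate 1 or 2 left out, 20 USP genes still rose, without USP5, USP18, USP48 and USP54 in both cases, but 4 or 3 UBE2 genes fell and neither UBE2Z nor USP10 was called. Without WT replicate 2, 23 UBE2 genes fell, and without WT replicate 1 the UBE2 median was -0.18. In every fit that left out 1 library and under each other setting, 13 of the 24 USP rises and 1 of the 14 UBE2 falls were called, but not the single rise in UBE2 or fall in USP genes. An offset for coding length was chosen after seeing the data and fitted on the 9799 genes with a coding length. With it, 15 USP genes rose and 6 fell, and 2 UBE2 genes fell and 5 rose. Its median over all genes was 0.020. The share of all genes called with it, or under the other settings of this paragraph, is not given here. These counts therefore stand without that comparison. With this offset the sign of the mRNA log2 fold change turned in 16 of 32 UBE2 and 4 of 41 USP genes. Of the genes described below, the calls of UBE2B, UBE2C, UBE2D4, UBE2E3, UBE2F, UBE2G2, UBE2K, UBE2N, UBE2R2, UBE2T, UBE2V1, UBE2V2, USP5, USP9X, USP20, USP28, USP32, USP34, USP47 and USP48 were lost with it, and UBE2E1, UBE2H, UBE2J2, UBE2L6, USP1, USP7 and USP11, not called in the test without it, were called. UBE2L6, USP7 and USP11 were also called in some other settings. With an offset for width the calls of UBE2B, UBE2C, UBE2E3, UBE2T, UBE2V2, USP9X, USP15, USP48 and USP54 were lost. Using library totals in place of TMM factors left 8 UBE2 falls.

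**Figure D3:**
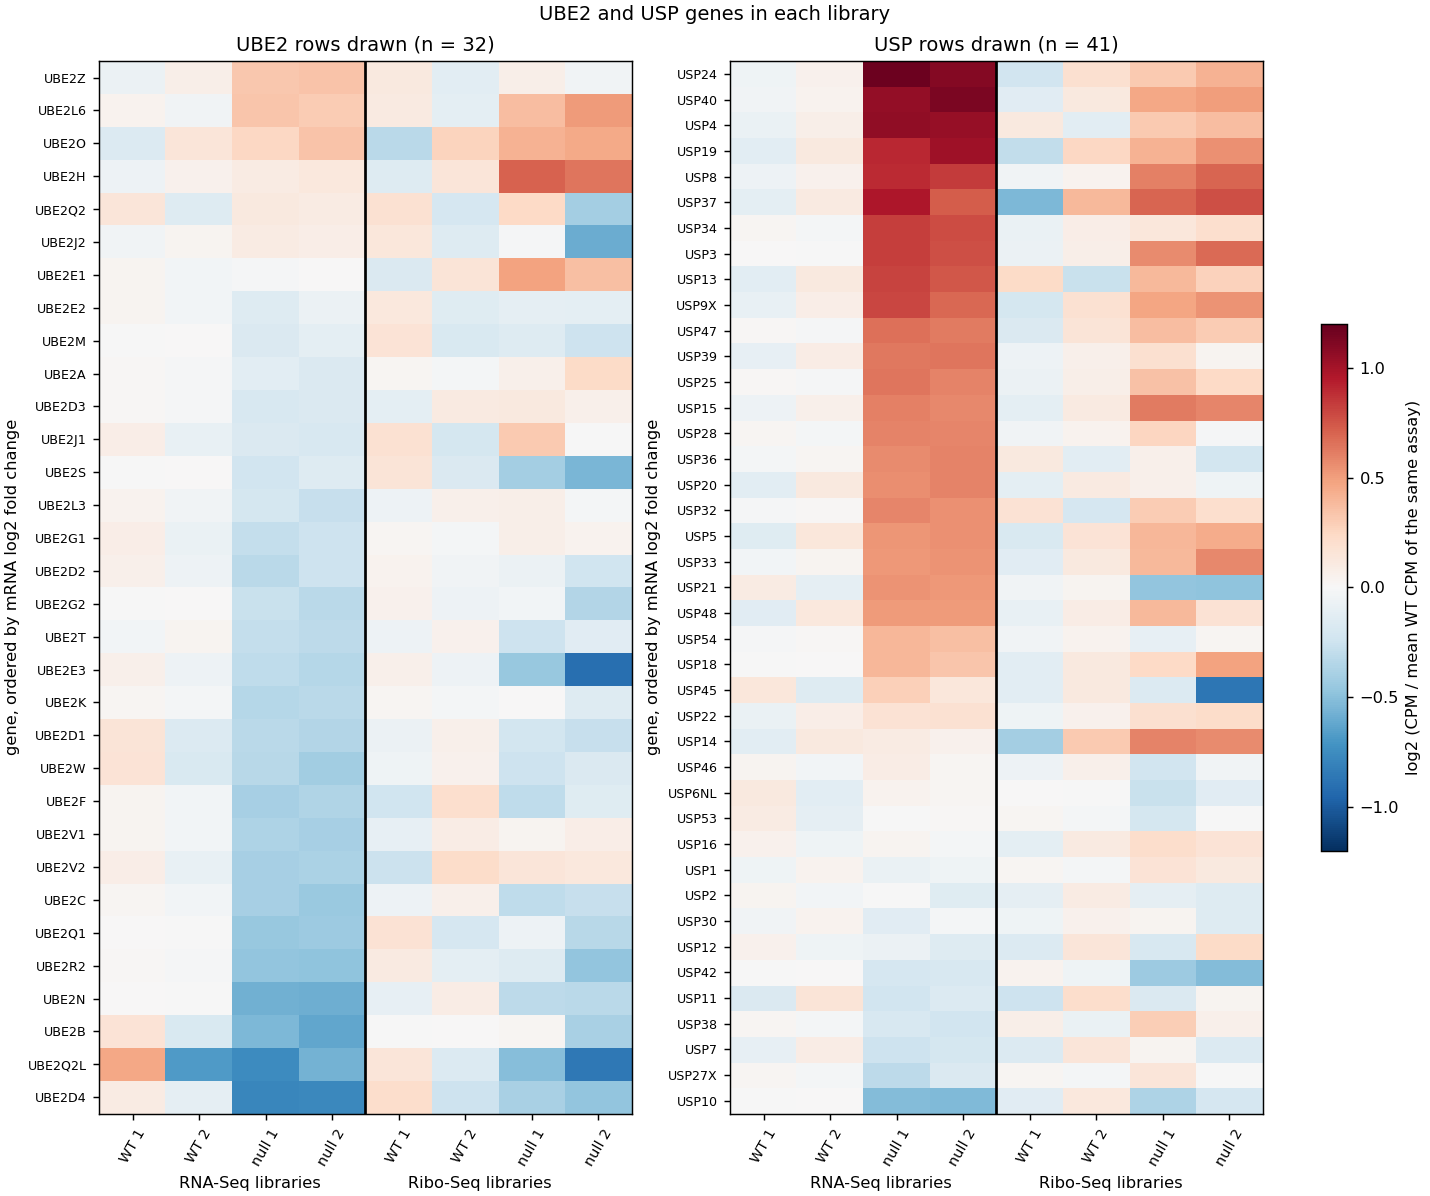
Colour shows log2 of CPM over the mean WT CPM of the same assay for each of the 8 libraries (columns, RNA-Seq left and Ribo-Seq right of the black line), with genes in rows ordered by mRNA log2 fold change and the families in separate panels. The upper USP rows are red in both XRN1-null RNA-Seq libraries and the lower UBE2 rows blue, from 1.14 for USP24 to -0.78 for UBE2D4, with paler colours in Ribo-Seq; 1 UBE2 row is not drawn.

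Among the E2s for ubiquitin-like proteins, UBE2F, for NEDD8, fell by 0.38, UBE2M, also for NEDD8, had a log2 fold change of -0.15 (FDR = 0.0685) or 0.20 with the coding length offset, and UBE2L6, for ISG15, had 0.32 (FDR = 0.00807). The values of UBE2F and UBE2M carry the limit of shared windows given above. The role groups are small, and their counts of calls here and in the following paragraphs stand against 22.9% of all genes higher and 23.2% lower. These shares depend on coding length. In its shortest quartile 5.33% of all genes rose and 48.05% fell, and in its longest quartile 46.8% rose and 7.68% fell.

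The lysine-63 chain enzymes all fell, with 3 of 3 called. UBE2N, the catalytic E2 for these chains, was at 204 and 203 CPM in WT against 137 and 136 CPM in XRN1-null cells, a log2 fold change of -0.58 ± 0.06 (SE, n = 2 per genotype, as for all values below; edgeR FDR = 0.000135). Its partners UBE2V1 and UBE2V2, E2 variants without an active-site cysteine, fell by 0.38 and 0.39. With the coding length offset none of the 3 was called, with log2 fold changes of -0.18 for UBE2N (FDR = 0.0280), 0.025 for UBE2V1 and 0.022 for UBE2V2. The E2s that build lysine-48 chains, the main signal for the proteasome, had 2 of 3 called, UBE2R2 (-0.48) and UBE2K (-0.33), while UBE2G1 was at -0.27 (FDR = 0.0135). With the coding length offset UBE2R2 was at -0.22 (FDR = 0.0116), UBE2K at -0.018 (FDR = 0.795) and UBE2G1 at 0.10, none of them called.

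Among the broad E2s of the UBE2D and UBE2E groups and UBE2L3, 2 of 8 fell (25%), and all 8 had a negative log2 fold change. All 8 lay in the shortest quartile of coding length, where 48.05% of all genes fell with a median of -0.34. Over all lengths 23.2% of all genes fell. UBE2D4, the least abundant UBE2D mRNA, was at 35.7 and 31.0 CPM in WT against 19.5 and 19.5 CPM in XRN1-null cells. Its groups were far apart, with a log2 fold change of -0.78 ± 0.09 (edgeR FDR = 0.000235). Its paralogs were closer to their WT levels, with log2 fold changes of -0.34 for UBE2D1 (FDR = 0.0204), -0.29 for UBE2D2 (FDR = 0.00815) and -0.18 for UBE2D3 (FDR = 0.0275), none of them called. UBE2D3, the most abundant, was at 468 and 457 CPM in WT against 406 and 409 CPM in XRN1-null cells. In the UBE2E group UBE2E3 fell by 0.32, UBE2E2 was at -0.11 (FDR = 0.22) and UBE2E1 at -0.0045 (FDR = 0.954). With the coding length offset 6 of the 8 had a positive value, UBE2D1 (0.070), UBE2D2 (0.12), UBE2D3 (0.23), UBE2E1 (0.32, FDR = 0.00151), UBE2E2 (0.21) and UBE2L3 (0.15), while UBE2D4 was at -0.37 (FDR = 0.00562) and UBE2E3 at -0.022, neither of them called.

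UBE2A and UBE2B, the human RAD6 proteins, share 95.4% of their residues and are E2s of histone H2B and PCNA. UBE2B was at 49.3 and 38.7 CPM in WT against 30.2 and 28.6 CPM in XRN1-null cells, a log2 fold change of -0.58 ± 0.12 (edgeR FDR = 0.00295), or -0.18 (FDR = 0.155) with the coding length offset. The WT values differed by more than the XRN1-null values, but the groups did not overlap. UBE2A was at 153 and 151 CPM in WT against 139 and 135 CPM in XRN1-null cells, with a log2 fold change of -0.15 ± 0.06 (FDR = 0.0605), which turned to 0.25 (FDR = 0.00653) with that offset. UBE2T fell by 0.30, and with an offset for width it was at 0.11 and not called.

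Both E2s of the anaphase-promoting complex were lower in both XRN1-null libraries, UBE2C with a fall of 0.42 (edgeR FDR = 0.000746) and UBE2S with -0.19 (FDR = 0.0278), which was not called and was 0.087 with the coding length offset. For degradation at the endoplasmic reticulum, UBE2G2 fell by 0.30 (0.080 and not called with the coding length offset), and neither UBE2J1 (-0.18) nor UBE2J2 (0.087) was called. UBE2Z, an E2 that receives ubiquitin from UBA6, was the only UBE2 gene that rose, from 114 and 126 CPM in WT to 150 and 152 CPM in XRN1-null cells (log2 fold change 0.33 ± 0.07, edgeR FDR = 0.0041). UBE2Q1 fell by 0.45 and its relative UBE2Q2 was at 0.11 (FDR = 0.357). UBE2O, a very large E2 with ligase activity of its own, was at 89.7 and 111 CPM in WT against 120 and 128 CPM in XRN1-null cells, with a log2 fold change of 0.30 ± 0.10 (FDR = 0.0324), or -0.053 with the coding length offset. The pseudogene row UBE2Q2L was at 1.41 and 0.639 CPM in WT and overlapped between genotypes, so its log2 fold change of -0.67 had an SE of 0.43 (FDR = 0.202).

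The largest rises of the USP family were those of USP24, USP40 and USP4. USP24 (chromosome 1, 55532032 to 55681051, minus strand) was at 148 and 160 CPM in WT against 349 and 331 CPM in XRN1-null cells. All 4 values kept the genotypes far apart, with a log2 fold change of 1.14 ± 0.07 (edgeR FDR = 1.6e-05). USP40 (24.0 and 25.3 CPM in WT against 51.2 and 54.2 CPM in XRN1-null cells) rose by 1.09 ± 0.07 (edgeR FDR = 2.11e-05). All 3 were among the 13 rises called in every fit. The order changed with the coding length offset, with 0.53 for USP24, 0.75 for USP40, 0.81 for USP4 and 0.75 for USP3.

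The USPs linked to splicing all rose, with 3 of 3 called. USP4, which acts on the spliceosomal protein PRPF3, was at 32.4 and 36.0 CPM in WT against 71.5 and 70.8 CPM in XRN1-null cells, a log2 fold change of 1.06 ± 0.07 (edgeR FDR = 2.33e-05). Its paralog USP15 rose by 0.59 but was not called with the width offset, and USP39, a spliceosome component whose USP domain is inactive, rose by 0.64. The third paralog, USP11, which acts in DNA repair, was at 137 and 172 CPM in WT against 132 and 138 CPM in XRN1-null cells, and its log2 fold change of -0.20 ± 0.10 (FDR = 0.129) was not called. USP11 and USP4 thus differed within 1 paralog group, although the difference itself was not tested.

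Of the USPs of endosomes, the endoplasmic reticulum and mitochondria, 5 of 6 rose. USP19, which has a form anchored in the endoplasmic reticulum, was at 79.7 and 94.2 CPM in WT against 163 and 176 CPM in XRN1-null cells (log2 fold change 0.96 ± 0.09, edgeR FDR = 9.42e-05). USP8, which deubiquitinates the EGF receptor and other cargo at endosomes, rose by 0.87 ± 0.07, and 19.2% of its windows matched elsewhere. The paralogs USP20 and USP33 rose by 0.58 and 0.53, and USP32 by 0.57. USP30, the mitochondrial enzyme that opposes parkin, was at -0.077 (FDR = 0.423).

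Among the USPs of the proteasome and of free ubiquitin chains, USP5 (0.54) and USP13 (0.78) rose, USP5 without a call when either XRN1-null library was left out. USP14, which is held on the proteasome, was at 86.9 and 102 CPM in WT against 101 and 98.3 CPM in XRN1-null cells, and its groups overlapped (log2 fold change 0.077 ± 0.087, FDR = 0.453). None of the 3 enzymes that are activated by WDR48 was called, with log2 fold changes of -0.069 for USP1, -0.11 for USP12 and 0.055 for USP46. Of 10 USPs that act on histones or in the DNA damage response, 4 rose, namely USP3 (0.80), USP47 (0.64), USP28 (0.59) and USP48 (0.51). USP22 was at 459 and 511 CPM in WT against 547 and 551 CPM in XRN1-null cells (0.18 ± 0.07, FDR = 0.0567), and USP7, which stabilizes MDM2 and p53, was at -0.23 (FDR = 0.0317).

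In the paralog pair USP25 and USP28, both rose, by 0.62 and 0.59. USP18, which removes ISG15, rose by 0.37, with 47.1% of its windows shared with other places, and was not called with either XRN1-null library left out. USP9X, an X-linked enzyme with the longest USP row, rose from 282 and 316 CPM in WT to 523 and 481 CPM in XRN1-null cells (log2 fold change 0.75 ± 0.08, edgeR FDR = 0.000156). With the coding length offset it was at 0.14 (FDR = 0.0838) and not called. USP34, USP37 and USP21 rose by 0.81, 0.86 and 0.53. With the coding length offset USP34 was at 0.070 (FDR = 0.33) and not called, and USP37 and USP21 were at 0.60 and 0.45. The only USP gene that fell was USP10, which stabilizes p53 and binds the stress granule protein G3BP1. It was at 159 and 160 CPM in WT against 111 and 111 CPM in XRN1-null cells (log2 fold change -0.52 ± 0.06, edgeR FDR = 0.000209).

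The mRNA change was compared with 2 lengths. Across USP genes, Spearman's rank correlation of the log2 fold change with width was 0.43 (n = 41) and with coding length 0.48. Across UBE2 genes, the rank correlation was 0.047 with width (n = 33) and 0.40 with coding length (n = 32). With the coding length offset the rank correlation with width was 0.14 in USP and -0.15 in UBE2 genes. Over all members it was 0.53 with width and 0.73 with coding length, against 0.35 and 0.51 over all genes. With the length of the 3′ untranslated region it was -0.31 in UBE2, 0.21 in USP and 0.094 over all genes. Genes are not independent replicates, and all of these values share the same 4 RNA-Seq libraries.

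Within each of 4 width classes (quartiles of all genes) the median mRNA log2 fold change was lower for UBE2 than for USP genes. From the narrowest to the widest class it was -0.17, -0.34, -0.30 and -0.18 for UBE2 and 0.37 (USP18 alone), 0.53, -0.071 and 0.59 for USP. In the widest class, above 4853 nt, 17 of 25 USP genes rose with a median of 0.59, 0 of 5 UBE2 genes rose with a median of -0.18, and 40.1% of all genes rose with a median of 0.23. The 8 UBE2 genes with a width over 4000 nt and a coding length up to 1000 nt (UBE2D3, UBE2G1, UBE2H, UBE2J1, UBE2K, UBE2R2, UBE2V1 and UBE2W) had 3 falls, no rise and a median of -0.30. In the third and the widest class, where they lay, 19.4% and 10.6% of all genes fell and 24.1% and 40.1% rose.

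Quartiles of coding length were compared in the same way. In the shortest class, up to 837 nt, 13 of 27 UBE2 genes (48.1%) fell with a median of -0.30, against 48.05% of all genes with a median of -0.34. In the longest class, above 2172 nt, 20 of 30 USP genes (66.7%) rose with a median of 0.57, against 46.8% of all genes with a median of 0.34. The 4 UBE2 genes with a coding length over 1000 nt (UBE2O, UBE2Q1, UBE2Q2 and UBE2Z) had 1 rise, 1 fall and a median of 0.20. Apart from UBE2O, in the longest class, they lay in the second class, where 13.8% of all genes rose and 23.3% fell. The 11 USP genes under 2000 nt had 4 rises and a median of 0.077. In the second class 1 of 4 USP genes rose, and in the third 3 of 7, against 24.3% of all genes in the third. With the coding length offset, the medians were 0.048 for UBE2 and 0.14 for USP, a difference of 0.095 in place of 0.82.

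**Figure D4:**
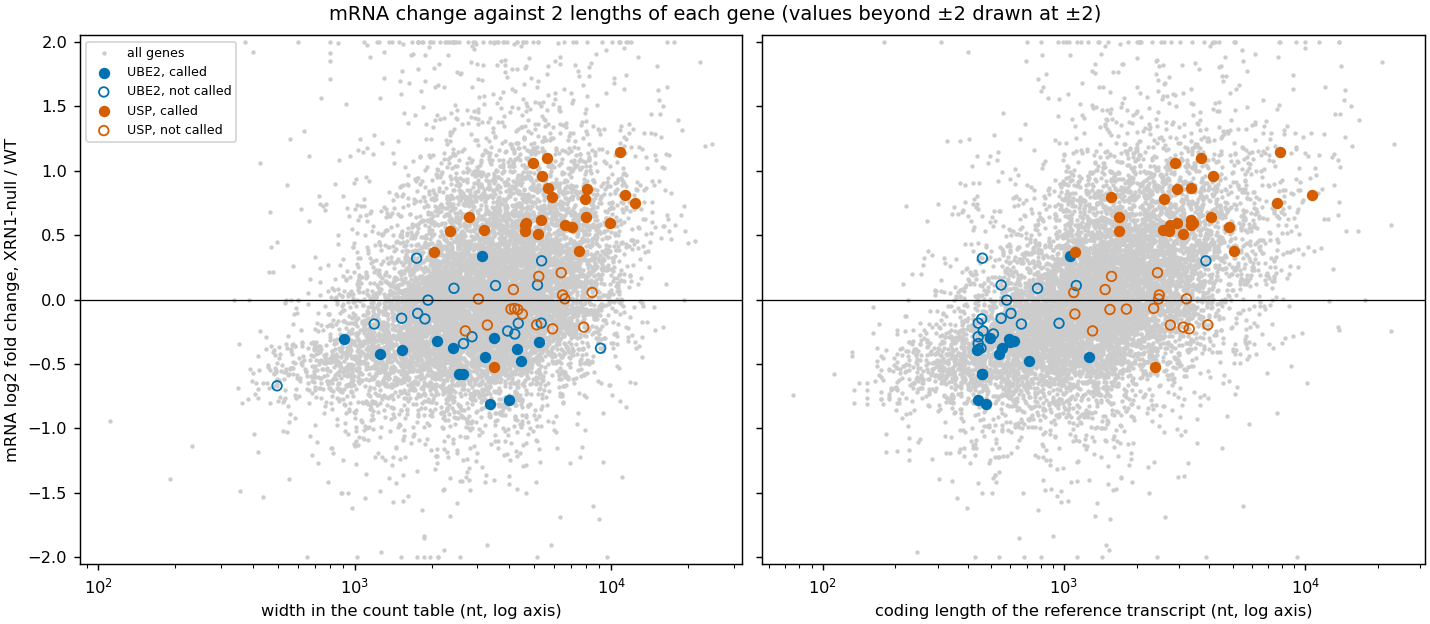
mRNA log2 fold change (vertical, XRN1-null over WT) against width (left) and coding length (right), both in nt on log axes, with all genes in grey, UBE2 in blue, USP in orange and called genes filled. The families overlap in width but are nearly apart in coding length, where the rank correlation over the members is 0.73 against 0.53 for width.

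In Ribo-Seq no member was called at the same threshold, at which 0.633% of all genes were higher and 1.14% lower. At an unadjusted p below 0.05 there were 7 UBE2 (21.2%) and 13 USP genes (31.7%), against 33.0% of all genes, and DESeq2 called 1 member. At an FDR below 0.05, 1 UBE2 gene was higher, 2 were lower and 5 USP genes were higher, against 7.07% of all genes higher and 8.38% lower. Median log2 fold changes of footprints were -0.15 in UBE2, 0.17 in USP and -0.0033 over all genes. The UBE2 median was -0.032 without XRN1-null Ribo-Seq replicate 2 and -0.079 without WT Ribo-Seq replicate 1. The difference of the family medians was 0.32, or 0.00492 with the coding length offset. Both XRN1-null libraries were above both WT libraries in 22 USP genes (53.7%) and below both in 6 (14.6%), and below both in 12 UBE2 genes (36.4%) and above both in 6 (18.2%), against 32.1% above and 32.3% below over all genes. With either WT Ribo-Seq library left out some members of both families were called, and with either XRN1-null library left out none was. The share of all genes called in those fits is not given here. The USP median was 0.16 without WT Ribo-Seq replicate 1 and 0.20 without XRN1-null Ribo-Seq replicate 2.

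UBE2H, an E2 of the CTLH ligase, was at 14.6 and 17.9 CPM in WT against 26.6 and 25.3 CPM in XRN1-null cells, a footprint log2 fold change of 0.63 ± 0.19 (edgeR FDR = 0.0437) beside an mRNA value of 0.11. UBE2H lies outside the rule for named genes and was chosen after its values were seen, and 16.7% of its windows matched elsewhere. UBE2E3 footprints were at 68.8 and 62.9 CPM in WT against 47.9 and 35.3 CPM in XRN1-null cells (-0.64 ± 0.17, FDR = 0.0268).

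For the USP genes the largest footprint values were those of USP8 (0.64 ± 0.15, edgeR FDR = 0.0179), USP37 (0.63 ± 0.22, FDR = 0.0684), USP3 (0.60 ± 0.16, FDR = 0.0280) and USP15 (0.59 ± 0.14, FDR = 0.0186). USP15 footprints were at 67.2 and 79.0 CPM in WT against 113 and 110 CPM in XRN1-null cells, and its mRNA and footprint log2 fold changes were equal at 0.59. USP24 footprints, in contrast, were at 109 and 147 CPM in WT against 159 and 171 CPM in XRN1-null cells (0.35 ± 0.16, FDR = 0.15), although its mRNA had risen by 1.14. USP14 had 97.9 and 162 CPM in WT against 196 and 193 CPM in XRN1-null cells (0.55 ± 0.20, FDR = 0.0747), with the WT libraries apart from each other.

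**Figure D5:**
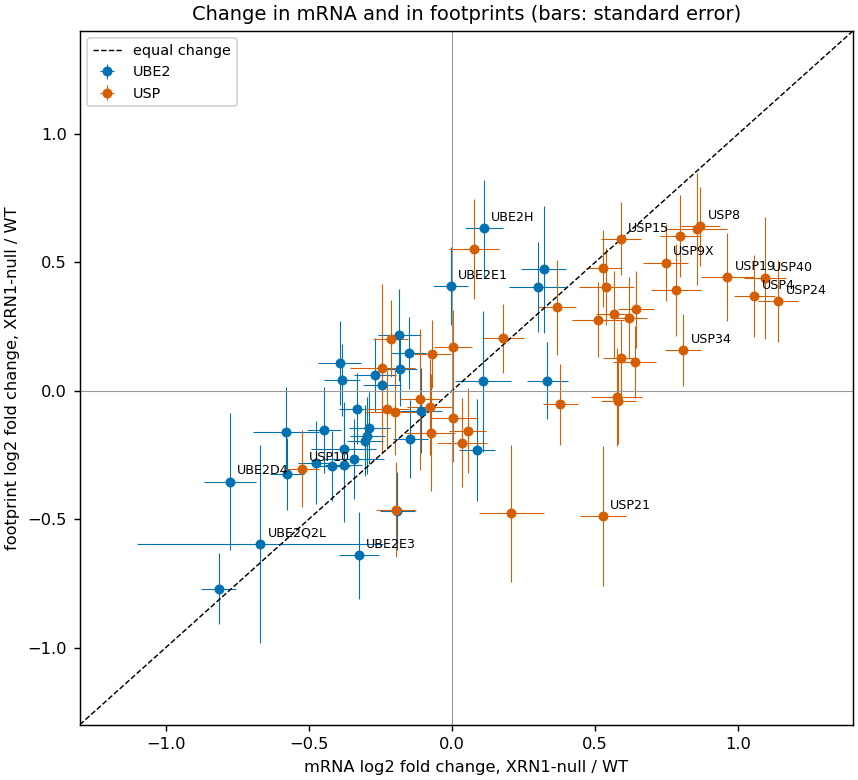
mRNA (horizontal) against footprint (vertical) log2 fold change, XRN1-null over WT, for UBE2 (blue) and USP (orange) genes, with bars of 1 standard error and a dashed line of equal change. Of the 24 USP genes whose mRNA rose, 23 lie below the dashed line, for example USP24 at 1.14 and 0.35, and USP15 lies on it at 0.59.

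For TE the interaction term was tested, that is whether the genotype effect differed between assays, and again no member was called, against 0.0495% of all genes higher and 1.78% lower. At an unadjusted p below 0.05 there were 6 UBE2 (18.2%) and 15 USP genes (36.6%), against 23.3% of all genes, and DESeq2 called 1 member, USP24. The median log2 change in TE was 0.15 in UBE2, -0.23 in USP and 0.0081 over all genes, and 27 of 33 UBE2 values were positive while 30 of 41 USP values were negative. The UBE2 median was 0.23 without WT RNA-Seq replicate 2, and the USP median was -0.12 without WT Ribo-Seq replicate 2. The rank correlation with coding length was -0.45 in UBE2, -0.49 in USP and -0.29 over all genes. The coding length offset moved the medians to 0.0067 and -0.10. At an FDR below 0.05, 5 USP genes were lower in TE and no UBE2 gene passed, against 6.46% of all genes lower and 1.02% higher.

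Those 5 were USP34 (-0.65 ± 0.14, edgeR FDR = 0.0153), USP24 (-0.80 ± 0.18, FDR = 0.0174), USP4 (-0.68 ± 0.16, FDR = 0.0239), USP21 (-1.02 ± 0.27, FDR = 0.0395) and USP36 (-0.61 ± 0.17, FDR = 0.0483). USP36 is a nucleolar deubiquitinase. In USP34, a very long mRNA of a Wnt pathway regulator, mRNA went from 102 and 98.8 CPM in WT to 179 and 173 CPM in XRN1-null cells, while footprints were at 62.5 and 69.6 CPM in WT against 72.8 and 76.2 CPM in XRN1-null cells. In USP21 the assays had values of opposite sign, with mRNA at 56.8 and 49.3 CPM in WT against 77.0 and 76.1 CPM in XRN1-null cells but footprints at 9.38 and 9.88 CPM in WT against 6.95 and 6.87 CPM in XRN1-null cells. USP21 footprints had a log2 fold change of -0.49 ± 0.27 (FDR = 0.237). With the coding length offset none of the 5 had an FDR below 0.05, with values of -0.18 for USP34 (FDR = 0.431), -0.43 for USP24 (FDR = 0.0683), -0.58 for USP4 (FDR = 0.0536), -0.98 for USP21 (FDR = 0.0724) and -0.48 for USP36 (FDR = 0.129).

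TE and mRNA change share the RNA-Seq counts, so they are given side by side and not correlated. Among the 24 USP genes whose mRNA rose, the TE value was negative in all 24, with a median of -0.36, and the same held for 84.7% of all genes whose mRNA rose, with a median of -0.39. Their footprints had a positive log2 fold change in 20 of 24, with a median of 0.34 beside 0.63 for mRNA. Of the 14 UBE2 genes whose mRNA fell, 13 had a positive change in TE, with a median over the 14 of 0.23, against 72.2% of all genes whose mRNA fell, with a median of 0.15. Their footprints had a median of -0.24 beside -0.41 for mRNA. The lysine-63 chain genes UBE2V1 and UBE2V2 had TE values of 0.42 and 0.49 (FDR = 0.095 and 0.127), with footprints at 0.042 and 0.11.

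Members with few matches in the genome were also counted alone. Of the 20 UBE2 genes with under 10% of windows matched elsewhere, 8 fell and 1 rose in mRNA, with a median of -0.29. Of 36 such USP genes, 21 rose and 0 fell, with a median of 0.53, against 22.9% of all genes higher and 23.2% lower. The 20 include UBE2D2 at 8.72%, although it shared 52 windows with the UBE2D3 coding sequence. Untranslated regions, which also give mRNA reads, were not searched, so this limit describes shared mRNA reads only in part. Exons of UBE2F and UBE2V1 also overlap the readthrough genes UBE2F-SCLY and PEDS1-UBE2V1 on the same strand, and those of USP4 overlap C3orf62, so reads there could belong to either gene. Exons of UBE2D4, UBE2N, USP8, USP34 and USP37, among others, overlap exons of genes on the opposite strand, and whether counting used the strand is not given in the sources used here.

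Other genes of the ubiquitin system did not share 1 direction, and their counts stand against 22.9% of all genes higher and 23.2% lower. Of 8 E1 genes in the table, 3 rose and 1 fell in mRNA, the latter being NAE1, a subunit of the NEDD8 E1, at -1.09, while UBA6, the E1 that serves UBE2Z, rose by 0.56. Of 8 E2 enzymes without the UBE2 name, 2 rose, among them BIRC6, a giant E2 with a coding length of 14571 nt, at 1.26. Among the ubiquitin genes, RPS27A, which encodes ubiquitin fused to a ribosomal protein, fell by 0.48, and UBB (-0.0100) was not called. Of 28 genes listed as other deubiquitinases or relatives of them, 7 rose (25%, near the share of all genes) and 3 fell (10.7%), with a median of 0.042. The list also holds COPS5, USPL1 and the translation initiation factor subunits EIF3F and EIF3H, and EIF3F was among the 3 falls. Of 4 genes of USP partner proteins, 1 fell, and WDR48 was at 0.12. None of these genes was called in footprints or in TE.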

How the data were processed

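RNA-Seq and Ribo-Seq of WT and XRN1-null HEK293T cells comprised 8 libraries, grouped by their labels. According to the methods and the submitters' processing notes, ribosomal RNA reads were removed with Bowtie2, the other reads were mapped on hg19 with TopHat2, and the authors deposited raw read counts per gene (QuasR) with a width per gene. Genes were kept by the authors above an FPKM minimum. A table of edgeR fold changes and one of RiboDiff comparisons with TE values hold the authors' own comparisons and were not used.

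Counts were tested with edgeR 4.0.16 (R 4.3.3), with TMM factors within each assay, a quasi-likelihood test of genotype and, for TE, of the interaction of assay and genotype over all 8 libraries, and Benjamini-Hochberg adjustment over 10105 genes (FDR below 0.005). The standard error was obtained as the size of the estimate over the root of its F statistic. CPM use TMM-scaled totals. The p-values measure the spread between 2 replicates. Ribo-Seq totals (1921641 to 4399542) were far below RNA-Seq totals (33757487 to 38145433), so footprint and TE changes are less precise. The counts of molecules are not known, since no molecular identifiers are described.

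Positions, coding lengths and sequences came from GENCODE release 44 on GRCh37 (10030 genes matched, 9799 with a coding length), whose coordinates are those of hg19. The members and gene lists were chosen with earlier results of these data known. Genes named are up to 6 rises and 6 falls per family, the extremes of length, level and TE, paralog groups, rows that are not enzymes of the families, and any called in footprints or TE. Some genes that this rule takes are not reported here by name, but stay in all counts and medians. Further members stand as examples of their role groups and were chosen after their values were seen. On simulated counts for 10105 genes, the test recovered 100% (mRNA), 63.2% (footprints) and 57.6% (TE) of genes changed by a log2 fold of 1, with 1 false call each. The simulated spread was fixed within each assay, no library was set apart, and far fewer genes were changed than were called in mRNA. These figures need not hold for the real counts or for smaller changes. Alternatives were DESeq2 1.42.0, RLE factors, library totals, a likelihood ratio test, a replicate block, a minimum of 10 counts, length offsets (loess, span 0.3), and leaving out each library.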

Additional observations from a re-analysis of the deposited data

How the results depend on the processing

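Depth and 2 replicates per genotype limit the precision of the footprint and TE comparisons. Counts of mRNA falls in UBE2 genes (14) became 8 with library totals and 2 with the coding length offset, which was chosen after seeing the data, and 3 to 23 with 1 library left out. Counts of UBE2 rises (1) became 2 with library totals, the likelihood ratio test or the width offset, 3 with the replicate block or an FDR below 0.05, 5 with the coding length offset, and 0 to 4 with 1 library left out. USP rises (24) became 15 with the coding length offset, stayed within 20 and 26 with 1 library left out, and were 20 with the width offset. USP falls (1) became 6 with the coding length offset, 3 with the width offset, 4 at an FDR below 0.05, and 0 to 3 with 1 library left out. Fits with 1 library left in a group assume that it varies like the other groups. Apart from the FDR below 0.05, the shares of all genes called under the settings of this section are not given here. Its counts of calls stand without that comparison.

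The difference of the family medians in mRNA (0.82) was 0.60 with the width offset, 0.095 with the coding length offset and 0.60 to 0.90 with 1 library left out. In footprints (0.32) it was 0.19 and 0.00492 with the 2 offsets, and in TE (-0.38) it was -0.11 with the coding length offset. In footprints, UBE2 falls (0) became 1 with DESeq2, library totals or the width offset, 2 with the likelihood ratio test or an FDR below 0.05, and 0 to 4 with 1 library left out. UBE2 rises (0) became 1 at an FDR below 0.05 and 0 to 2 with 1 library left out, and USP rises (0) became 3 with the likelihood ratio test, 5 at an FDR below 0.05, and 0 to 10 with 1 library left out. In TE, USP falls (0) became 1 with DESeq2 (USP24), 3 with the likelihood ratio test, 5 at an FDR below 0.05, and 0 to 1 with 1 library left out. The cause of these shifts was not tested.

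The mRNA log2 fold change of UBE2T turned sign with the width offset (0.11). With the coding length offset the sign turned in 16 of 32 UBE2 and 4 of 41 USP genes, among them UBE2T (0.015), UBE2V1 (0.025), UBE2V2 (0.022), UBE2G2 (0.080) and USP54 (-0.071), all called only without it, and UBE2E1 (0.32, against -0.0045), called only with it. With the width offset the USP median was 0.34 in mRNA, and the footprint medians were -0.091 (UBE2) and 0.10 (USP), or 0.055 and 0.060 with the coding length offset. Library totals moved the median of all genes by 0.06 in mRNA. Protein length in place of width was not run, and coding length was used instead.

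The labels give replicate numbers but do not say what same-numbered libraries share, so the numbers were not taken as pairs. Deviations of same-numbered libraries correlated by 0.19 in RNA-Seq, 0.0803 in Ribo-Seq and 0.0766 in TE, and those of the RNA-Seq and Ribo-Seq libraries of 1 genotype by 0.355 in WT and 0.0326 in XRN1-null cells. With the replicate block, UBE2 mRNA rises were 3 and falls 17, USP mRNA calls were the same genes (24 and 1), footprint calls were 2 UBE2 falls (among them UBE2E3) and 4 USP rises (USP14, USP15, USP37 and USP8), and with the number as a culture block in TE, 2 USP falls (USP24 and USP34).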
